A study of Sus scrofa with 4 samples.

Results

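The nuclear pore and nuclear transport genes described here are the genes whose symbol in the deposited table is that of a numbered nucleoporin (NUP), an importin alpha (KPNA), importin beta (KPNB1), a numbered importin (IPO), an exportin (XPO), a transportin (TNPO), a Ran-binding protein (RANBP) or RAN. The rule takes genes by name alone and does not use their values, though it was set with earlier results of these data known. There were 54 such genes among 25560 gene names in all, and they held 95 of the 35395 transcript rows of the table. By role they were 7 importin alpha genes, 13 importin beta family genes, 6 exportins, 4 genes of Ran and its regulators, 2 scaffolds named for Ran binding and 22 nucleoporins.

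The nuclear pore is a ring of nucleoporins set in the nuclear envelope, with outer and inner rings as the frame, a central channel, a cytoplasmic face and a nuclear basket. Large proteins cross it bound to carriers. Importin alpha reads the classical nuclear localization signal of a cargo and joins it to importin beta, other importins bind cargo directly, and exportins carry cargo out. The small GTPase Ran, bound to GTP in the nucleus and to GDP in the cytoplasm, sets the direction. KPNA7 is the importin alpha of the oocyte and the cleaving embryo, known from the pig, cattle and the mouse.

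RNA was sequenced from pig (Sus scrofa) 4-cell embryos, in 2 libraries labelled control and 2 libraries labelled TFAP2C knockdown. The genotype label of the knockdown libraries reads TFAP2C KD and their treatment is an siRNA injected into the cytoplasm; the same injection protocol is listed for the controls, and what they received is not given. TFAP2C (AP-2 gamma) is a transcription factor of the trophectoderm and the germ line. The labels name no breed, no number of embryos per library and no separate embryo pools, so p-values cover no more than the spread among these 4 libraries, which may be technical.

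Between 6.07 and 8.83 aligned gigabases per library are implied by the deposited values, and 9238 to 9917 genes reached 1 FPKM in a library (fragments corrected for transcript length and for library size). The labels could not be checked on the row of the targeted gene. TFAP2C was listed at 14.7 and 7.78 FPKM under the controls and at 0.448 and 3.11 FPKM under the knockdowns, yet its coverage divided by FPKM matched the constants of libraries in the opposite group. It was the 1 row in the table for which this was so, and no member row above 0.1 FPKM departed from the constant of its own library. Libraries are therefore called labelled control and labelled knockdown, and every difference is labelled knockdown minus labelled control. Whether only this row or the libraries themselves were exchanged cannot be told apart from the table, and if the libraries were, every direction given here would turn round. The 15 oocyte markers were BMP15, BTG4, GDF9, H1FOO, MOS, NLRP5, OOEP, PADI6, TLE6, WEE2, ZAR1, ZAR1L, ZP2, ZP3 and ZP4. They summed to 6329 and 6095 FPKM under the control label and to 3095 and 4097 FPKM under the knockdown label. Each was above 0 in every library. All are known from the oocyte, so they do not check the embryo stage. The 16 cumulus and granulosa markers in the table summed to 20.5 and 14.9 FPKM under the control label and to 27.6 and 19.4 FPKM under the knockdown label, with AMH and PTGS2 listed at 0 throughout and 9 of the 16 under 1 FPKM in every library. Of the 6 tested, 1 rose (NR5A2, which early embryos also use), against 5.11% of all genes tested. NR5A2 was listed at 0 and 0.234 FPKM under the control label and at 6.47 and 4.68 FPKM under the knockdown label. It thus reached the mean of 1 FPKM needed for testing only through the labelled knockdowns. The 9 blood and sperm markers in the table summed to at most 2.54 FPKM in a library. The 13 protein genes of the mitochondrial genome took 18.5% and 24.1% of TPM (a transcript measure with an equal sum in each library) under the control label and 39.9% and 26.9% under the knockdown label.

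The transport genes spanned a wide range of levels. In the labelled controls 7 of the 54 had a mean of at least 100 FPKM, 16 lay between 10 and 100 FPKM, 19 between 1 and 10 FPKM and 12 under 1 FPKM. By mean level KPNA7 stood first among them in both groups, and it ranked 48 among all genes under the control label and 149 under the knockdown label. In labelled knockdown 1 RAN stood above it, at 308 against 280.4 FPKM. Together the 54 genes took 0.563% and 0.531% of all FPKM under the control label and 0.274% and 0.370% under the knockdown label. KPNA7 alone made up 35.9% and 33.8% of their sum under the control label and 15.6% and 17.5% under the knockdown label.

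**Figure D1:**
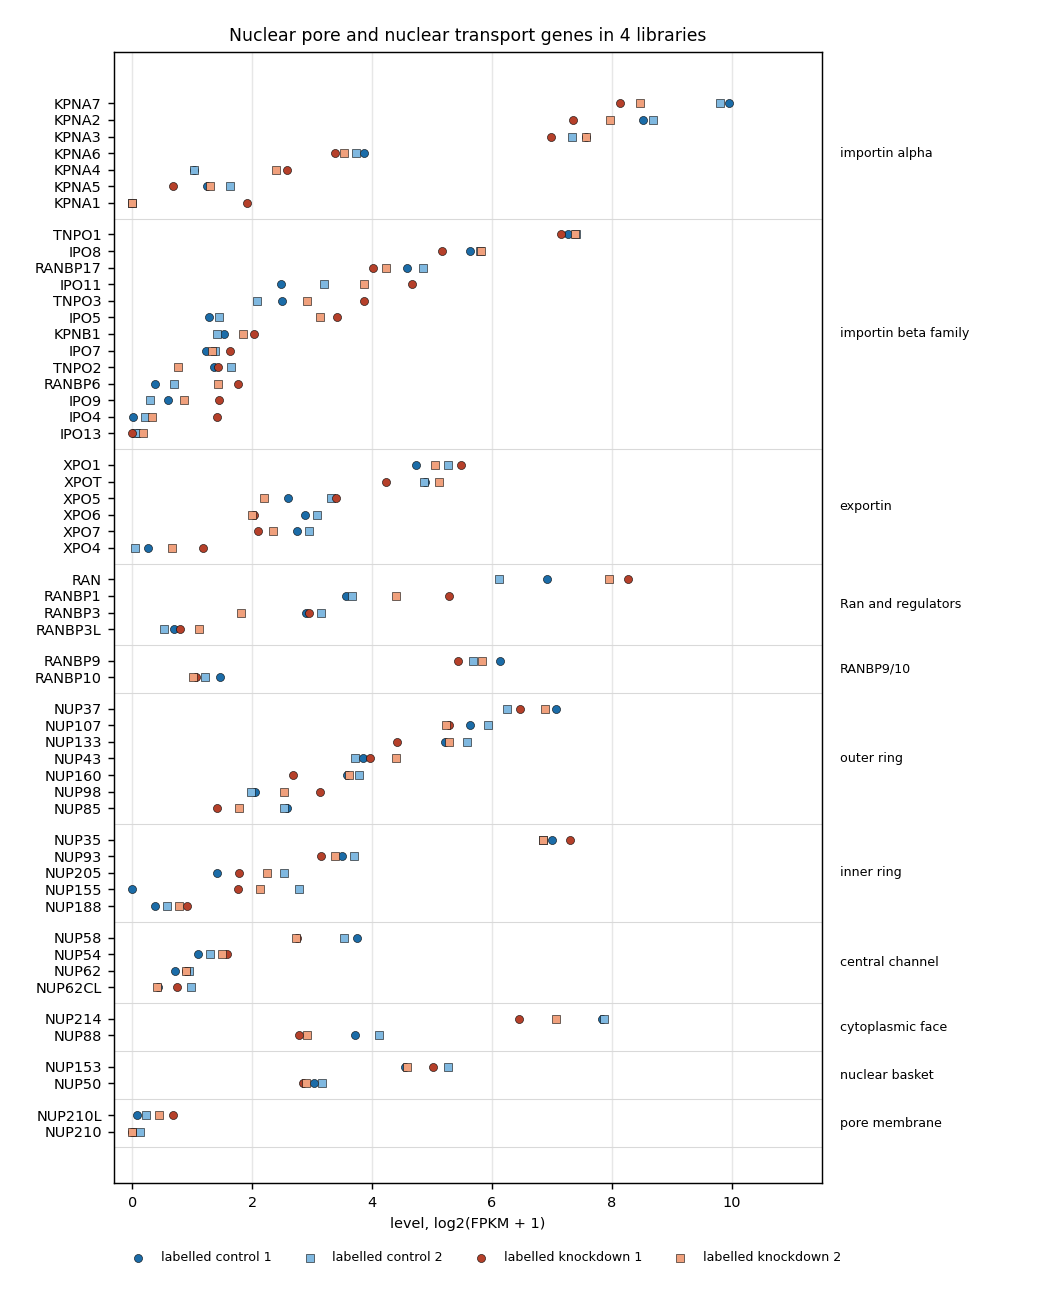
Levels of the 54 nuclear pore and nuclear transport genes on a log2(FPKM + 1) axis, with 1 point per library, grouped by role and sorted by mean level within a role. KPNA7 lies furthest to the right by mean level, with both labelled knockdowns (280.4 and 356 FPKM) below both labelled controls (989 and 893 FPKM). RAN lies the other way round and stands above KPNA7 in labelled knockdown 1.

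Setting the groups side by side asks how 4-cell embryos differ in their transcripts when TFAP2C is targeted. Of the 54 members 43 had a mean of at least 1 FPKM and were tested. KPNA4 and IPO5 rose and KPNA7 fell under the knockdown label (limma on log2(FPKM + 1), Benjamini-Hochberg adjusted p under 0.05), which is 3 of 43 members (6.98%) against 6.57% of all 9850 genes tested. The share of members called was thus close to the background, which was 5.11% for higher and 1.46% for lower genes. A positive log2 fold change was seen in 17 of the 43, against 42.4% of all genes tested. At an unadjusted p under 0.05 there were 8 higher and 7 lower members of the 43, against 14% and 13.9% of all genes tested. Both labelled knockdowns lay above both labelled controls for 11 of the 43 and below them for 14, against 24.7% and 35.8% of all genes tested. The median log2 fold change of the members was -0.19, beside -0.13 over all genes tested. After median-ratio scaling these medians were -0.03 and 0.01, and with TPM they were -0.39 and -0.37. When either labelled knockdown was left out, limma passed 0 genes of any kind, so no member could pass there (8 and 16 members at an unadjusted p under 0.05). Without labelled controls 1 and 2 in turn it called 174 and 505 genes, with no member among them (7 and 9 members at an unadjusted p under 0.05).

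**Figure D2:**
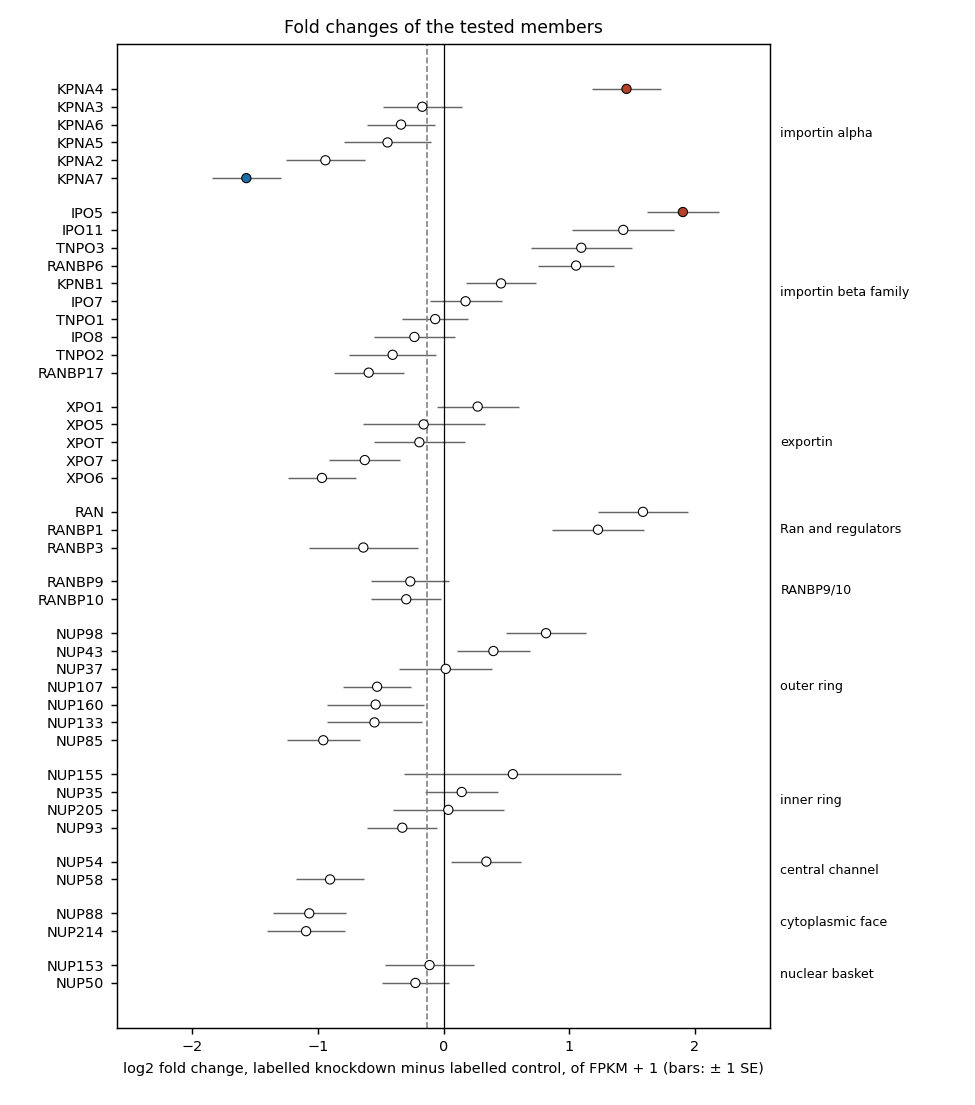
Log2 fold change of FPKM + 1 for the 43 tested members by role, with bars of 1 SE on either side and the median of all genes as a dashed line at -0.13. KPNA4 and IPO5 (red) and KPNA7 (blue) passed the threshold; the 17 tested nucleoporins (open) reached from -1.09 to 0.82 and none passed.

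Importin alpha was the class with the largest summed level in every library, and it held 1 of the 2 rises and the 1 fall. KPNA7 (gene ID 100302505 in RefSeq, on chromosome 3 from 6167382 to 6201282 of Sscrofa11.1) stood at 989 and 893 FPKM in labelled controls 1 and 2 and at 280.4 and 356 FPKM in labelled knockdowns 1 and 2. The groups did not overlap, and each labelled knockdown was under each labelled control by more than the spread within either group. The means were 941 ± 68.3 FPKM and 318 ± 53.2 FPKM (SD, n = 2 each). The log2 fold change was -1.57 with an SE of 0.28 (limma, Benjamini-Hochberg adjusted p = 0.0354). Over the 12 alternative fits it was between -1.86 and -1.40, with adjusted p from 0.0327 to 0.189 and 5 fits past the threshold. Without labelled control 1 or 2 the limma adjusted p was 0.164 and 0.0892, and without labelled knockdown 1 or 2 it was 0.186 and 0.0930.

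The marker sum of the oocyte list was lower in the same libraries, as given above. Of its 15 genes WEE2, MOS, H1FOO and ZAR1L fell, with log2 fold changes of -2.13, -1.89, -1.96 and -2.04. That is 26.7% of the list, against 1.46% of all genes tested. Both labelled knockdowns lay below both labelled controls for 12 of the 15, against 35.8% of all genes tested. The part of these lower marker levels in the KPNA7 difference was not tested. In bulk embryos a different mix of embryos in a library and less RNA per cell cannot be told apart.

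KPNA2, the importin alpha of many dividing cells, was second. It stood at 365 and 413 FPKM under the control label and at 163 and 249.5 FPKM under the knockdown label. The groups did not overlap, but the difference did not pass (log2 fold change -0.94, SE 0.31, limma adjusted p = 0.126). KPNA3 came next at 188 and 159.9 FPKM under the control label and at 125 and 189 FPKM under the knockdown label, so that its groups overlapped. Its log2 fold change was -0.17 (SE 0.31, limma adjusted p = 0.753), or 0.002 after median-ratio scaling.

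The other importin alphas were far lower. KPNA4, also called importin alpha 3 and a carrier of NF-kappa-B subunits (chromosome 13, 100185081 to 100253077), stood at 1.05 and 1.05 FPKM under the control label and at 4.98 and 4.27 FPKM under the knockdown label. Its mean was 4.42 times as high under the knockdown label, from 1.05 ± 0.00332 to 4.63 ± 0.504 FPKM (SD, n = 2 each). The log2 fold change was 1.46 (SE 0.28, limma adjusted p = 0.0419), and over the alternatives it lay between 1.36 and 2.04 with an adjusted p from 0.0378 to 0.197, past the threshold in 2 of 11. With a pseudocount of 0.1 the adjusted p was 0.0507, with TPM 0.0558, without labelled controls 1 and 2 in turn 0.162 and 0.128, and without labelled knockdowns 1 and 2 in turn 0.197 and 0.108 (limma). KPNA6 stood at 13.6 and 12.2 FPKM under the control label and at 9.47 and 10.5 FPKM under the knockdown label (log2 fold change -0.34, limma adjusted p = 0.444). KPNA5 lay between 0.593 and 2.08 FPKM in every library, with overlapping groups (limma adjusted p = 0.432). KPNA1 was listed at 0 in both labelled controls and in labelled knockdown 2 and at 2.74 FPKM in labelled knockdown 1, and it was not tested.

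Set against the other importin alphas, KPNA7 held a smaller part of the class under the knockdown label. Its share of the summed importin alpha FPKM was 63.5% and 60.3% under the control label and 47.8% and 43.9% under the knockdown label. The mean share was 16.0 percentage points lower, 61.9% ± 2.26 against 45.8% ± 2.76 (SD, n = 2 each), and the groups did not overlap. With 2 libraries against 2 an exact two-sided permutation test cannot go below p = 0.333, and that was its value. KPNA3 held 12.1% and 10.8% under the control label and 21.4% and 23.3% under the knockdown label. KPNA2 overlapped between the groups in its share, with 23.4% and 27.9% under the control label and 27.8% and 30.8% under the knockdown label. These shares do not depend on how the libraries are scaled against each other.

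**Figure D3:**
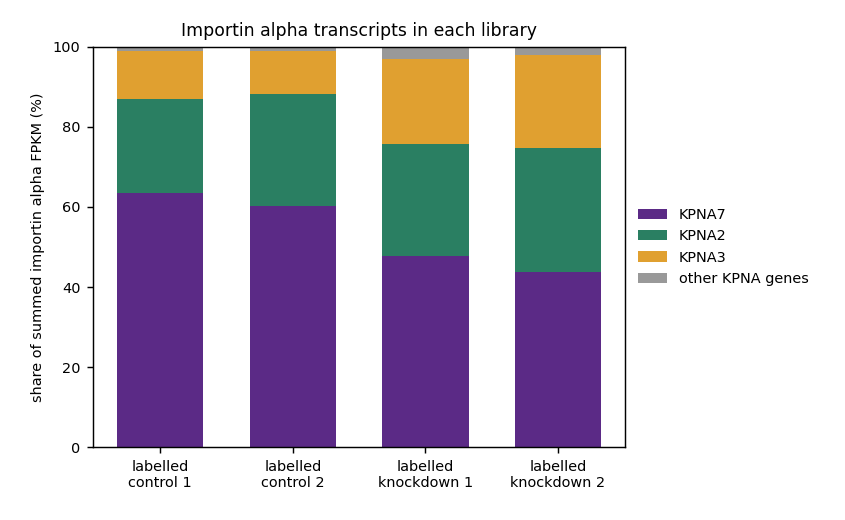
Share of each importin alpha in the summed importin alpha FPKM of a library, in percent, with 1 stacked bar per library. KPNA7 takes 60.3% to 63.5% under the control label and 43.9% to 47.8% under the knockdown label, and KPNA3 takes 10.8% to 12.1% and 21.4% to 23.3%.

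KPNA7 was also compared with each of the 17 other importins (KPNA, KPNB1, IPO and TNPO genes) as a ratio within a library. The log2 ratio on FPKM + 1 was lower in both labelled knockdowns than in both labelled controls for 17 of 17, and the exact permutation p was 0.333 for each, the smallest the design allows. These ratios share KPNA7, whose own log2 fold change was -1.57, and are not independent. KPNA1, IPO4, IPO9 and IPO13 had means under 1 FPKM and were not tested, so the added 1 weighs heavily in their ratios. KPNA7 stood at 2.71 and 2.16 times the FPKM of KPNA2 under the control label and at 1.72 and 1.43 times under the knockdown label. Over KPNA3 the ratio was 5.27 and 5.58 under the control label and 2.24 and 1.88 under the knockdown label. In the labelled controls the order of the 4 highest importins was KPNA7, KPNA2, KPNA3 and TNPO1, and only the last pair overlapped in range. The order was the same under the knockdown label, where KPNA2, KPNA3 and TNPO1 overlapped as neighbours.

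In the importin beta family 1 of 10 tested genes rose and none fell, against 5.11% and 1.46% of all genes tested. A positive log2 fold change was seen in 6 of the 10, against 42.4% of all genes tested. The median was 0.32, beside -0.13 over all genes tested. IPO5, which carries ribosomal proteins among other cargo (chromosome 11, 67019299 to 67059375), stood at 1.44 and 1.73 FPKM under the control label and at 9.67 and 7.74 FPKM under the knockdown label. The groups lay far apart, and the mean was 5.50 times as high under the knockdown label, from 1.58 ± 0.206 to 8.71 ± 1.37 FPKM (SD, n = 2 each). Its log2 fold change was 1.90 (SE 0.29, limma adjusted p = 0.0254). Over the alternatives the value lay between 1.76 and 2.38 and the adjusted p between 0.0240 and 0.176, and it passed in 5 of 12. Without labelled controls 1 and 2 in turn the limma adjusted p was 0.1003 and 0.0507, and without labelled knockdowns 1 and 2 in turn 0.176 and 0.0930.

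Other carriers of the family had positive log2 fold changes that did not pass. IPO11, a carrier of ubiquitin-conjugating enzymes, stood at 4.60 and 8.13 FPKM under the control label and at 24.4 and 13.6 FPKM under the knockdown label (log2 fold change 1.43, limma adjusted p = 0.0940). TNPO3, which carries SR splicing factors, stood at 4.66 and 3.23 FPKM under the control label and at 13.5 and 6.52 FPKM under the knockdown label (log2 fold change 1.10, limma adjusted p = 0.150). RANBP6, a close relative of IPO5, stood at 0.295 and 0.625 FPKM under the control label and at 2.39 and 1.68 FPKM under the knockdown label (log2 fold change 1.05, limma adjusted p = 0.0962). In each of these 3 genes both labelled knockdowns were above both labelled controls, as in 24.7% of all genes tested. RANBP6 had a mean of 0.460 FPKM under the control label and 2.03 FPKM under the knockdown label. It thus reached the mean of 1 FPKM needed for testing only through the labelled knockdowns. It is 1 of the 6 positive genes of the family, with a sign that follows from how it passed the filter. RANBP17, an importin-like protein, was the other way round at 22.9 and 27.9 FPKM under the control label and 15.1 and 17.7 FPKM under the knockdown label (log2 fold change -0.60, limma adjusted p = 0.227).

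KPNB1, the importin beta that partners the importin alphas (chromosome 12, 23915783 to 23945407), stood at 1.89 and 1.67 FPKM under the control label and at 3.06 and 2.58 FPKM under the knockdown label. It ranked 36 among the 54 members in both groups, far below KPNA7. Its log2 fold change was 0.46 (SE 0.28, limma adjusted p = 0.328), so a difference was not detectable with these libraries although the groups did not overlap. The most abundant gene of the family was TNPO1, transportin 1, which carries hnRNP proteins. It stood at 154 and 168 FPKM under the control label and at 142 and 166 FPKM under the knockdown label, and its groups overlapped (log2 fold change -0.07, limma adjusted p = 0.891). IPO8, a carrier of argonaute proteins, stood at 48.9 and 54.8 FPKM under the control label and at 34.8 and 55.3 FPKM under the knockdown label, again with overlap. IPO7 and TNPO2 stayed between 0.698 and 2.14 FPKM and overlapped between the groups. IPO4, IPO9 and IPO13 were too low to test, with a highest value of 1.72 FPKM for IPO9 in labelled knockdown 1.

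None of the 5 tested exportins passed, against 6.57% of all genes tested. A negative log2 fold change was seen in 4 of the 5, against 5671 of all 9850 genes tested. XPO1 (CRM1), which exports proteins with a leucine-rich signal, stood at 25.7 and 37.5 FPKM under the control label and at 43.9 and 32.2 FPKM under the knockdown label. Its groups overlapped, with a log2 fold change of 0.27 (SE 0.33, limma adjusted p = 0.616), or -0.0053 with TPM. XPO6, the exporter of actin, was lower without overlap, at 6.36 and 7.44 FPKM under the control label and 3.08 and 2.97 FPKM under the knockdown label (log2 fold change -0.97, SE 0.27, limma adjusted p = 0.0927). XPO7 was also lower without overlap, at 5.74 and 6.67 FPKM against 3.28 and 4.06 FPKM (limma adjusted p = 0.213). XPOT, the tRNA exportin, stood at 28.4 and 28.1 FPKM under the control label and at 17.9 and 33.7 FPKM under the knockdown label. XPO5, the exporter of microRNA precursors, stood at 5.02 and 8.97 FPKM under the control label and at 9.48 and 3.59 FPKM under the knockdown label. Both XPOT and XPO5 overlapped between the groups. XPO4 was too low to test, at 1.26 FPKM or less.

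RAN, the GTPase itself (chromosome 14, 24312810 to 24318024), stood at 120.5 and 68.8 FPKM under the control label and at 308 and 247 FPKM under the knockdown label. Both labelled knockdowns were above both labelled controls, and the means were 94.6 ± 36.5 and 277 ± 42.9 FPKM (SD, n = 2 each). The log2 fold change of 1.59 (SE 0.36) just missed the threshold (limma adjusted p = 0.0593), and RAN passed after median-ratio scaling (log2 fold change 1.76, limma adjusted p = 0.0463). RANBP1, which helps to release Ran from carriers in the cytoplasm, stood at 10.8 and 11.6 FPKM under the control label and at 37.8 and 20.1 FPKM under the knockdown label. Its log2 fold change was 1.23 (SE 0.37, limma adjusted p = 0.104). RANBP3, a cofactor of XPO1, stood at 6.41 and 7.88 FPKM under the control label and at 6.75 and 2.50 FPKM under the knockdown label, with overlap. KPNA7 thus stood at 8.21 and 13.0 times the FPKM of RAN under the control label and at 0.911 and 1.44 times under the knockdown label. RANBP9 and RANBP10, scaffolds of a ubiquitin ligase that carry the Ran-binding name, had limma adjusted p of 0.609 and 0.518. RANBP9 lay between 42.1 and 68.9 FPKM and RANBP10 between 1.02 and 1.75 FPKM.

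Of the 22 nucleoporins 17 were tested and none passed (limma; 1 higher and 4 lower at an unadjusted p under 0.05, against 14% and 13.9% of all genes tested). Their log2 fold changes ran from -1.09 to 0.82 with a median of -0.22, beside -0.13 over all genes tested. Of the 17, 10 were negative, against 5671 of all 9850 genes tested. With TPM 15 of 20 were negative, against 7796 of all 11547 genes tested, with medians of -0.36 and -0.37. After median-ratio scaling 9 of 17 were negative, against 4872 of all 9867 genes tested.

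The lowest fold changes among nucleoporins were those of the cytoplasmic face, where NUP214 and NUP88 form a subcomplex in mRNA export. This class holds only these 2 members, and no row is named RANBP2. NUP214 stood at 228 and 232 FPKM under the control label and at 86.2 and 133 FPKM under the knockdown label. The groups did not overlap, and the log2 fold change was -1.09 (SE 0.31, limma adjusted p = 0.0940). NUP88 stood at 12.1 and 16.4 FPKM under the control label and at 5.90 and 6.51 FPKM under the knockdown label (log2 fold change -1.07, SE 0.29, limma adjusted p = 0.0870). Both genes were thus at less than the labelled control range in each labelled knockdown, without passing over all genes.

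The outer ring (Y complex) was mixed. Of its 7 genes 3 had a positive and 4 a negative log2 fold change, against 4179 and 5671 of all 9850 genes tested. The median was -0.53, beside -0.13 over all genes tested. NUP85 was lower without overlap, at 4.99 and 4.75 FPKM under the control label and 1.66 and 2.43 FPKM under the knockdown label (log2 fold change -0.96, limma adjusted p = 0.106). NUP98, whose transcript also encodes the outer ring protein NUP96, was higher without overlap, at 3.14 and 2.96 FPKM against 7.79 and 4.78 FPKM (log2 fold change 0.82, limma adjusted p = 0.170). NUP107 stood at 48.6 and 60.5 FPKM under the control label and at 38.0 and 36.5 FPKM under the knockdown label (limma adjusted p = 0.263). NUP37, the most abundant of the ring, stood at 134 and 75.2 FPKM under the control label and at 88.0 and 117 FPKM under the knockdown label, so its groups overlapped. NUP133 and NUP160 overlapped too, and NUP43 was slightly higher in both labelled knockdowns (limma adjusted p = 0.409).

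In the inner ring NUP35, a membrane-binding subunit, was the most abundant, at 127 and 114 FPKM under the control label and 156 and 114 FPKM under the knockdown label. Its groups overlapped, and its log2 fold change was 0.14 (limma adjusted p = 0.772), or -0.14 with TPM. NUP93, NUP205 and NUP155 stood at 12.0 FPKM or less in every library, and NUP155 was listed at 0 in labelled control 1 and at 5.90 FPKM in labelled control 2. NUP155 moved from a log2 fold change of 0.55 to -0.84 without labelled control 1 and to 1.94 without labelled control 2. NUP188 was too low to test.

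In the central channel NUP58 was lower without overlap, at 12.5 and 10.6 FPKM against 5.75 and 5.62 FPKM (log2 fold change -0.90, limma adjusted p = 0.105). NUP54, its partner, was at 2.00 FPKM or less in every library. NUP62, the third partner, was at 0.928 FPKM or less and was not tested. In the nuclear basket NUP153 stood at 22.4 and 37.7 FPKM under the control label and at 31.4 and 22.9 FPKM under the knockdown label, with overlap. NUP50 lay between 6.22 and 7.96 FPKM. NUP210 and NUP210L, of the pore membrane, were at 0.603 FPKM or less. Within the pore, subunits that meet in 1 ring thus differed widely in their level per length.

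Several members have more than 1 transcript row, and the rows of a gene divide its FPKM between them. Of 23 such members with a mean of at least 1 FPKM, 13 had the same leading row in all 4 libraries and 10 had different leading rows in the 2 libraries of a group. KPNA7 kept its leading row, which stood at 659.9 and 599 FPKM under the control label and at 173 and 216 FPKM under the knockdown label. Its other row stood at 329 and 294 FPKM against 108 and 139.5 FPKM, so that both rows were lower in both labelled knockdowns. Of 56 member rows tested, 0 were higher and 1 was lower (limma on rows, Benjamini-Hochberg adjusted p under 0.05), against 0.926% of all rows tested in either direction. At an unadjusted p under 0.05 the counts were 7 higher and 9 lower, against 10.2% and 9.88% of all rows. The row was the second of TNPO1, at 80.7 and 70.8 FPKM under the control label and listed at 0 in both labelled knockdowns (limma adjusted p = 0.0361). The other TNPO1 row stood at 73.1 and 96.9 FPKM under the control label and at 142 and 166 FPKM under the knockdown label, and the sum of both overlapped between the groups. Rows changed places within a group as well. NUP37 was held by 1 row in labelled control 1 and by the other in labelled control 2, each listed at 0 where the other was present. The second row of NUP214 stood at 63.9 and 122 FPKM under the control label and at 19.9 and 16.4 FPKM under the knockdown label, with no overlap (limma on rows, adjusted p = 0.134). Its first row overlapped, at 164 and 109.6 FPKM under the control label and 66.2 and 116.2 FPKM under the knockdown label (limma on rows, adjusted p = 0.473). The leading row of NUP214 differed between the labelled controls.

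**Figure D4:**
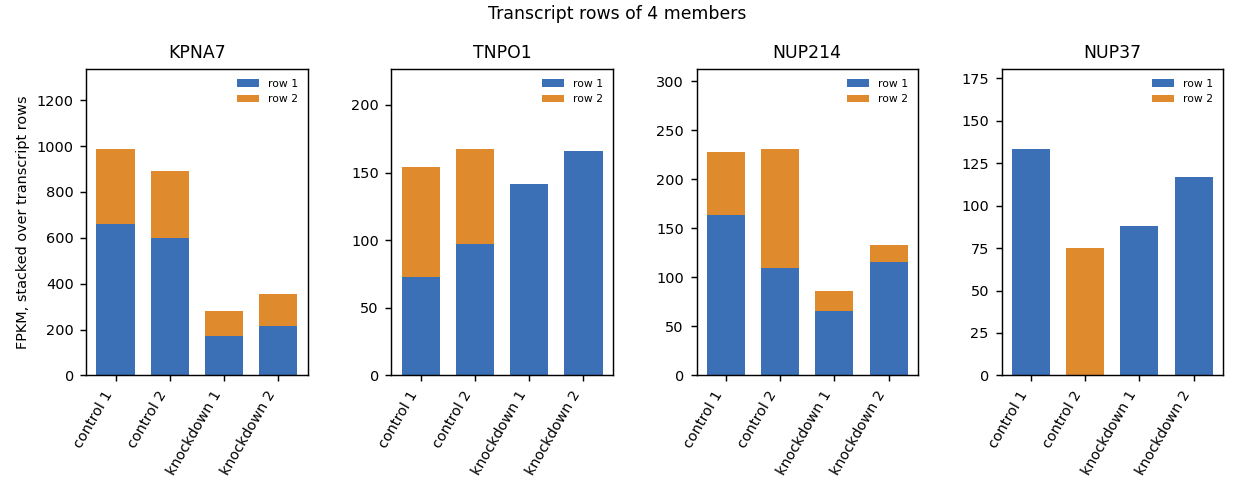
FPKM of the transcript rows of KPNA7, TNPO1, NUP214 and NUP37, stacked per library, with row 1 the row of the highest mean. The second TNPO1 row is present in both labelled controls (80.7 and 70.8 FPKM) and listed at 0 in both labelled knockdowns, while NUP37 changes its row between the labelled controls.

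Other genes of nuclear transport that the name rule does not take were counted as lists. Of 75 genes listed 69 were in the table and 58 were tested, of which 1 rose and none fell (limma, 1.72% against 6.57% of all genes). At an unadjusted p under 0.05 there were 8 higher and 9 lower of the 58, against 14% and 13.9% of all genes. The gene that rose was SEM1, a small subunit of both the TREX-2 mRNA export complex and the proteasome lid, at 4.03 and 11.6 FPKM against 305 and 112 FPKM and with a log2 fold change of 4.54 (limma adjusted p = 0.0198). It passed without labelled control 1 and without labelled control 2; without either labelled knockdown no gene passed. The other pore genes had 0 of 13 called and a median log2 fold change of -0.49, beside -0.13 over all genes tested. Of the 13, 7 were lower without overlap and 3 higher, against 35.8% and 24.7% of all genes tested. NUPL2, the cytoplasmic-face nucleoporin now called NUP42, stood at 30.1 and 24.9 FPKM under the control label and at 12.3 and 17.4 FPKM under the knockdown label (log2 fold change -0.86, limma adjusted p = 0.138). RAE1, an mRNA export factor that binds NUP98, stood at 300.1 and 189 FPKM under the control label and at 120.0 and 159 FPKM under the knockdown label (limma adjusted p = 0.201).

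The other genes of the Ran cycle had 0 of 10 called and a median of 0.02, against 6.57% and -0.13 over all genes tested. RCC1, the exchange factor that loads Ran with GTP, stood at 1.42 and 1.38 FPKM under the control label and at 3.84 and 3.33 FPKM under the knockdown label (log2 fold change 0.93, limma adjusted p = 0.101). CSE1L, which returns importin alpha to the cytoplasm, overlapped between the groups at 3.01 to 5.69 FPKM. RANGAP1, which switches Ran off, was at 0.367 FPKM or less. Of 23 mRNA export genes tested 1 rose, SEM1, against 5.11% of all genes tested. Their median was 0.25, beside -0.13 over all genes. ALYREF, an export adaptor, stood at 1.10 and 5.49 FPKM under the control label and at 19.4 and 15.9 FPKM under the knockdown label (log2 fold change 2.33, limma adjusted p = 0.0659), and it passed without labelled control 2. Of 12 envelope and lamina genes tested 0 were called, with a median of -0.05, against 6.57% and -0.13 over all genes tested. SUN2, of the envelope bridge to the cytoskeleton, stood at 5.002 and 4.81 FPKM under the control label and at 1.58 and 0.9596 FPKM under the knockdown label (log2 fold change -1.39, limma adjusted p = 0.0504). It passed with TPM and with names only as in the file.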

How the data were processed

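RNA-seq values of 4 libraries of pig 4-cell embryos were used. A SMARTer mRNA-seq kit was used for the libraries, per the labels' protocols. The tools StringTie 2.1.7, Bowtie2 2.3.5 and cutadapt and the build Sscrofa11.1 are named in the submitters' processing notes; their roles, filters and the annotation release are not given in these sources. The table deposited by the authors gives coverage (read depth per base of a transcript), FPKM and TPM for each transcript and library, per the file headers. Depth was read from deposited coverage divided by FPKM, and no read counts were used.

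Rows were named by RefSeq accession (32816 rows), another version of it (4), a symbol used as ID (2305) or the name in the file (246), and 24 kept their own ID. FPKM was summed per gene. Genes whose mean reached 1 FPKM were compared with limma 3.58.1 (R 4.3.3; trend, group as the only term) on log2(FPKM + 1), two-sided, with Benjamini-Hochberg adjustment over all 9850 genes and a threshold of 0.05; the fit was tested on simulated data. Fold changes on this scale understate those of low genes. With 2 libraries per group there are 2 residual degrees of freedom. Values of exactly 0 may be failed estimates and are given as listed at 0. The rows of one gene share reads, as can near-identical copies, which was not measured. Shares were compared with exact permutation tests (scipy 1.17.1).

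The members, lists and tests were chosen with earlier results of these data known. Named genes are the importin alphas, members past the threshold, RAN, KPNB1, XPO1 and, per role, the member with the highest mean and the one with the largest fold change; others described in the text were chosen after their values were seen. RANBP2 fits the name rule, but no row carries its name, so it was not analysed here. The cytoplasmic face class holds 2 of the 4 genes listed for it. Alternatives are another pseudocount, other filters, TPM, median-ratio scaling, transcript rows, names as in the file, a replicate block and leaving out each library.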

Additional observations from a re-analysis of the deposited data

How the results depend on the processing

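The count of 3 members called became 0 with no filter on low values (when limma called 0 genes in all, with 15 members at an unadjusted p under 0.05), 1 when each transcript row was tested on its own, 0 with the replicate number as a block, and 0 in each fit that left out 1 library. Those fits called 174 and 505 genes in all without labelled controls 1 and 2 and 0 genes without labelled knockdown 1 or 2, so the last pair says nothing of the members. Same-numbered libraries deviated apart (r = -0.143 across genes), so no pairing by number was seen. With 2 libraries per group this cannot exclude that same-numbered libraries were prepared together. The block left 133 calls over all genes in place of 647. A crossed block, chosen after seeing the data, called 730 genes and 3 members, 2 of them among the 3 reported. KPNA7 kept its direction in 12 of 12 alternatives, with log2 fold changes of -1.57 without a filter, -1.70 for its highest row, -1.57 with the replicate block and -1.74 to -1.40 without 1 library, each with an adjusted p above 0.05 (limma). Its share was 14.1 to 18.0 percentage points lower without 1 library, and it changed by -19.99 points as a share of all importins. The 1 other transport gene called became 0 without a filter, 3 with TPM (of 547 genes called in all), 2 with names only as in the file (of 650), 0 with the replicate block and 0 to 2 without 1 library, the 0 in the fits that called no gene. Fold changes near 0 changed sign. After median-ratio scaling KPNA3 was at 0.002, NUP153 at 0.055 and TNPO1 at 0.10, and TNPO1 was at 0.86 by its highest row. With TPM NUP35 was at -0.14, NUP37 at -0.27 and XPO1 at -0.0053. Without 1 library KPNA3 ranged from -0.46 to 0.12, NUP153 from -0.48 to 0.25, NUP155 from -0.84 to 1.94, NUP35 from -0.080 to 0.37, NUP37 from -0.39 to 0.43 and TNPO1 from -0.18 to 0.046. Of 245 values of the 21 other named genes 213 kept direction and call. Only IPO5 and KPNA4 of the 21 were called as reported, and they kept the call in 5 of 12 and 2 of 11 alternatives. The others could only stay uncalled in the fits that called 0 genes in all, so the 213 is no measure of stability. The causes of these changes were not tested.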
